A study of Mus musculus with 2 samples.

Results

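The genes described here are the secreted Wnt ligands, their Frizzled receptors, the co-receptors and alternative receptors Lrp5, Lrp6, Ror1, Ror2 and Ryk, and the secreted inhibitors of the Sfrp, Dkk and Wif1 families, in whole mouse intestine at embryonic day 16.5. Members were taken by gene symbol from the protein-coding genes of the deposited gene tables. The symbols chose 43 genes of 21474 protein-coding genes, namely 19 ligands, 10 Frizzled receptors, 5 co-receptors or alternative receptors and 9 inhibitors. Frzb, a relative of the Sfrp genes with another kind of symbol, was not taken by this rule. The RNA, over 200 nt in size, came from intestines of healthy B6NCrl embryos of both sexes, with 10 ng of RNA per library. The series has 1 group of 2 libraries, called replicate 1 and replicate 2, with no treatment, mutant or second age. The 2 libraries stand for 2 pools of embryos; replicate 2 pooled 41, and the labels used here give no number for replicate 1. Both biosamples carry the same donor identifier. How much of the spread between the libraries is technical was not tested.

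Wnt proteins are lipid-modified signals that act over short distances. A Wnt bound to a Frizzled receptor and to Lrp5 or Lrp6 stabilises beta-catenin, which then works with TCF/LEF factors in the nucleus, whereas Wnts bound to Frizzled with Ror1, Ror2 or Ryk can act on cell shape, polarity and movement without beta-catenin. In the intestine the beta-catenin branch is known for keeping epithelial progenitors dividing, and the Wnt5a branch for lengthening the gut tube. Sfrp and Wif1 proteins bind Wnts outside the cell, and most Dkk proteins bind Lrp5 and Lrp6.

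Summed over all features, expected counts came to 42040766 and 41480301, and the 43 genes took 25431 and 24760 of them. All 8 epithelial, 7 mesenchymal, 6 smooth muscle and 6 enteric neuron markers were detected in both libraries, as the label of whole intestine implies, and so were all 6 pancreas and all 6 liver markers. Values are in TPM, a level corrected for gene length and scaled to the same total in each library, given for replicate 1 and then replicate 2, or as mean ± SD of the 2 libraries. A gene counts as detected where both libraries give it 1 TPM or more. In such bulk tissue, fewer cells of a type and less RNA per cell cannot be told apart. With 1 group there is no test between conditions, so differences between genes are set against the spread of the 2 libraries and the deposited interval of each value, whose level is not stated.

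Of the 43 genes, 22 were detected, which is 51.2%, beside 62.0% of all protein-coding genes. The families differed in this count, with 5 of 19 ligands, 7 of 10 Frizzled receptors, all 5 co-receptors or alternative receptors and 5 of 9 inhibitors detected. Summed levels did not follow the number of genes. The 19 ligands summed to 27.5 and 27.2 TPM, the 5 co-receptors or alternative receptors to 36.3 and 41.5 TPM, the 10 Frizzled receptors to 41.5 and 43.3 TPM, and the 9 inhibitors to 134.8 and 123.4 TPM. Inhibitor transcripts thus stood above ligand transcripts in both libraries, with a log2 ratio of summed TPM of 2.24 ± 0.08 (SD, n = 2), or 4.72-fold. Frizzled receptors stood 1.55-fold above the ligands, a log2 ratio of 0.64 ± 0.06. The median ligand had only 0.20 and 0.39 TPM, the median Frizzled gene had 4.12 and 4.00 TPM, the median inhibitor had 7.10 and 2.95 TPM, and the median protein-coding gene had 4.46 and 4.44 TPM. The inhibitor median thus lay below the Frizzled median in replicate 2, and the 3 highest inhibitors held 89.4 ± 1.88% of the inhibitor sum. One of them, Dkk3, is not known as an Lrp5 or Lrp6 antagonist and held 17.5 ± 0.80% of that sum.

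**Figure D1:**
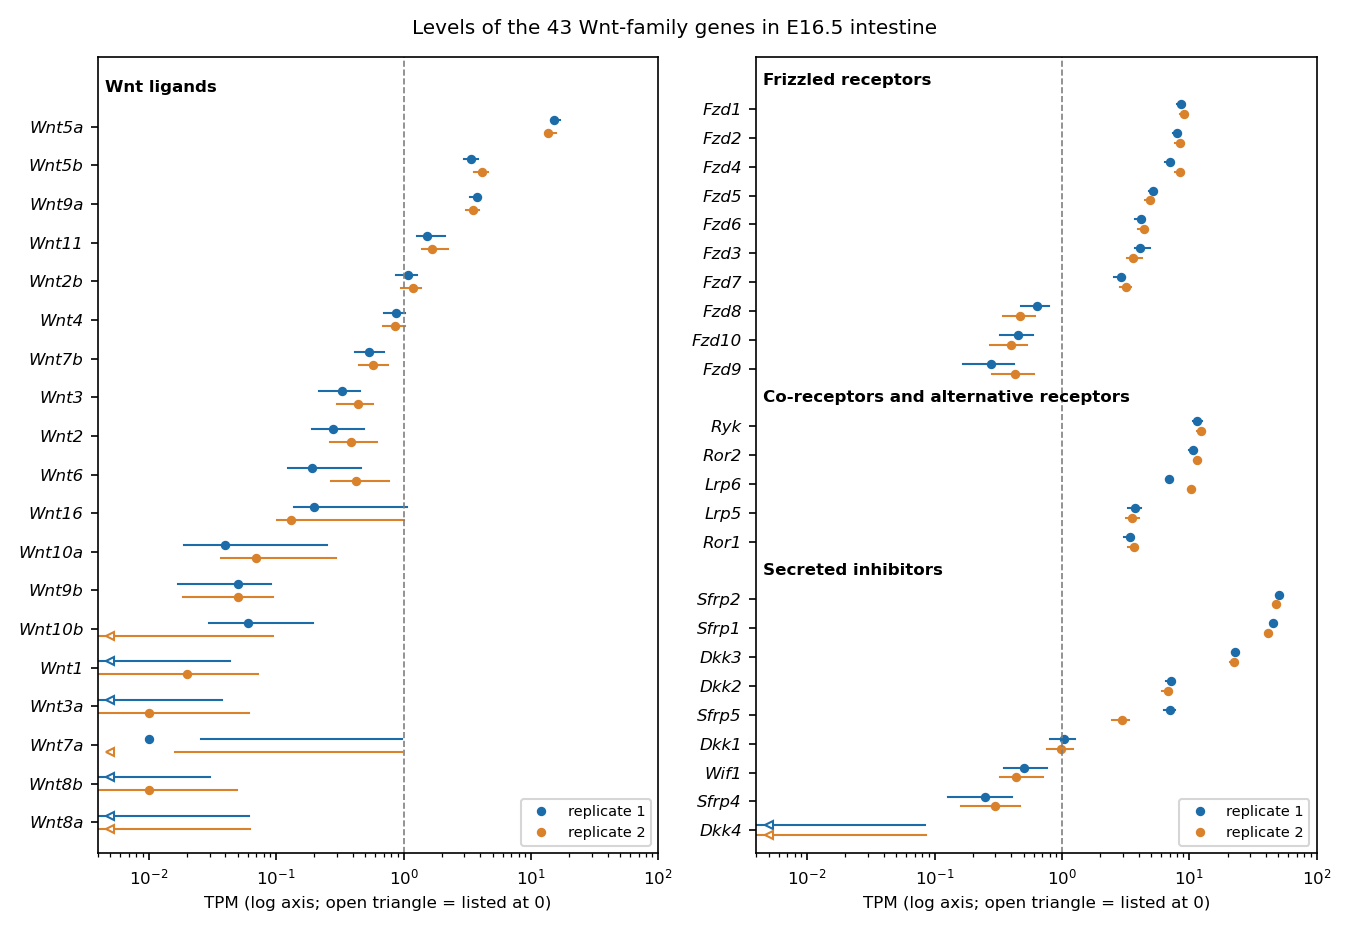
TPM on a log axis for each of the 43 genes in replicate 1 (blue) and replicate 2 (orange), ordered by mean level within each family; horizontal lines are the deposited intervals and the dashed line marks a TPM of 1. Wnt5a is the only ligand above 10 TPM, most of the other ligands lie left of the dashed line, and Sfrp2, Sfrp1 and Dkk3 lie farthest to the right; intervals are posterior ones and need not cover the point, as for Wnt7a.

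Wnt5a, the ligand best known for signalling without beta-catenin, was the highest ligand, at 15.1 TPM in replicate 1 and 13.7 TPM in replicate 2 (14.4 ± 1.03, from 2332 and 2055 expected counts). It lies on chromosome 14 (chr14:28504750-28527448, plus strand). Both values, and both deposited intervals, lay above those of every other ligand. Wnt5a alone held 52.7 ± 3.36% of the summed ligand TPM. Its closest relative Wnt5b followed with 3.39 and 4.12 TPM, and Wnt9a, a ligand known from joint formation, with 3.76 and 3.54 TPM. Those 2 genes could not be ordered, since Wnt9a was the higher in replicate 1 and Wnt5b in replicate 2. Wnt11, a ligand of cell movement and of kidney branching, had 1.53 and 1.68 TPM. Wnt2b, made by the mesenchyme of several organs and active through beta-catenin, had 1.09 and 1.18 TPM. Wnt11 lay above Wnt2b in both libraries, but their intervals overlapped, and Wnt2b was the last ligand past a TPM of 1.

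Grouped by textbook role, all 3 ligands best known for beta-catenin-independent signalling (Wnt5a, Wnt5b and Wnt11) were detected and held 72.3 ± 0.92% of the summed ligand TPM. Wnt11 reached 1 TPM only with transcripts annotated as targets of nonsense-mediated decay included. Among the 9 ligands best known for beta-catenin signalling, 1 was detected, Wnt2b, and the class held 7.18 ± 0.89%. The 7 ligands used for either by context also had 1 member detected, Wnt9a, and held 20.5 ± 0.04%. These shares differed between classes by far more than between the libraries. They describe transcripts, and a role given by name does not say which branch a ligand used in this tissue.

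The 14 ligands that were not detected ran from 0 to 0.88 TPM. Wnt4, which is needed for kidney and ovary development, came nearest with 0.88 and 0.86 TPM, and Wnt7b, an epithelial ligand of the lung, had 0.54 and 0.58 TPM. Wnt3, a ligand that Paneth cells make in the adult crypt, had 0.33 and 0.44 TPM from 29 and 37 counts, and Wnt2 had 0.28 and 0.39 TPM from 18 and 23 counts. Each of these 4 genes had reads in both libraries, with overlapping intervals. Wnt6 had 11 and 20 counts and Wnt16 had 9 and 6. Wnt10a had 3 and 5 counts, Wnt9b had 6 and 6, and Wnt10b had 4 and 0. Wnt1, Wnt3a, Wnt7a and Wnt8b had at most 1 count in a library, and Wnt8a had none in either. A count of 0 for Wnt8a allows up to 0.0619 and 0.0638 TPM, the level of 3 counts in each library, and this floor covers counting error only.

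**Figure D2:**
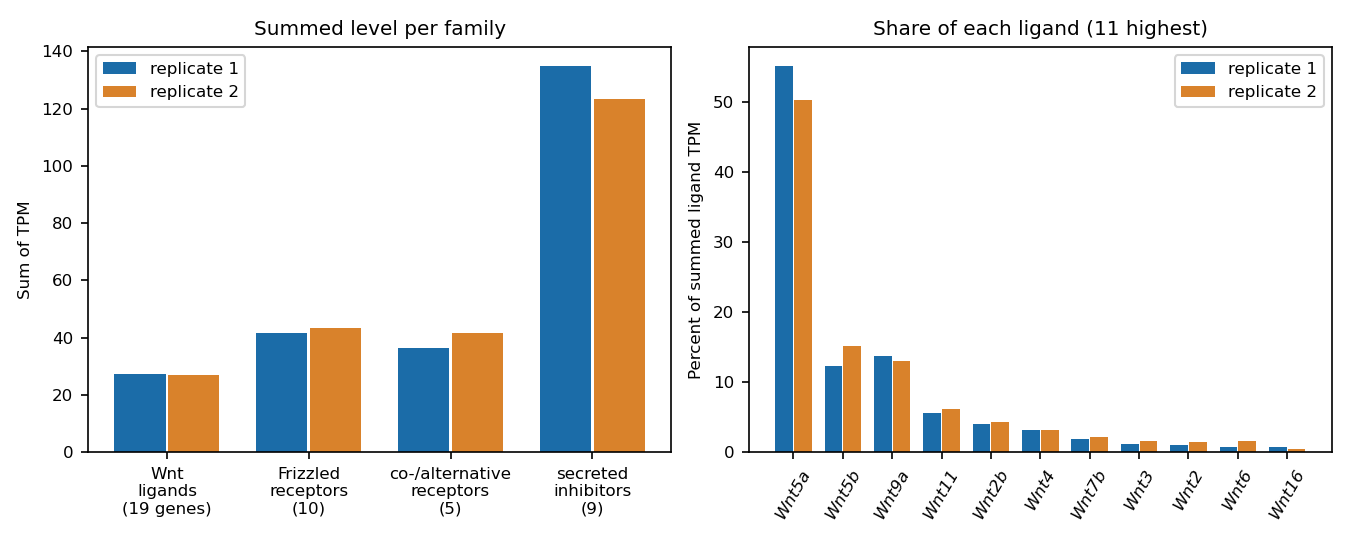
Left, the sum of TPM over all members of each family in replicate 1 (blue) and replicate 2 (orange); right, the percent of the summed ligand TPM held by each of the 11 highest ligands. The inhibitor bars reach 134.8 and 123.4 TPM against 27.5 and 27.2 TPM for the ligands, and Wnt5a holds 55.0% and 50.3% of the ligand sum.

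The 3 beta-catenin-independent ligands each have more than 1 annotated transcript start, and the transcript tables divide their reads between them. The 250 bases before 5 of these starts, those with an entry in the RefSeq promoter table (build GRCm38.p6), are shown because the transcript values bear on them. All are written 5′ to 3′ along the gene, ending at the base before the start. Capitals mark 3 kinds of motif on either strand: a TATA box (TATAAA), a GC box (GGGCGG, or CCGCCC on the other strand) and a TCF/LEF motif (CTTTG followed by 2 bases that are each A or T); neighbouring or overlapping matches run together. The Wnt5b windows lie on the minus strand at chr6:119544348-119544597 for start 1, chr6:119467212-119467461 for start 2, 77.1 kb downstream, and chr6:119449387-119449636 for start 3, 95.0 kb downstream. The Wnt11 windows lie on the plus strand at chr7:98834862-98835111 for start 1 and chr7:98838595-98838844 for start 2, 3.73 kb downstream.
Wnt5b start 1: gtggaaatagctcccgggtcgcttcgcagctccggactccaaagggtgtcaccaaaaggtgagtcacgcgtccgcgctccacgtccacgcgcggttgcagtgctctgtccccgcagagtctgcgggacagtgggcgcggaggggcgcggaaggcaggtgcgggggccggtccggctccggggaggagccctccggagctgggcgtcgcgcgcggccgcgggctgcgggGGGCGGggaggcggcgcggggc
Wnt5b start 2: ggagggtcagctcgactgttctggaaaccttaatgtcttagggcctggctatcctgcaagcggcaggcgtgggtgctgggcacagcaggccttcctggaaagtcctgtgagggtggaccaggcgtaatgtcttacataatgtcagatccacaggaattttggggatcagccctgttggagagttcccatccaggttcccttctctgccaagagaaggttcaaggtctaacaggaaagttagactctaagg
Wnt5b start 3: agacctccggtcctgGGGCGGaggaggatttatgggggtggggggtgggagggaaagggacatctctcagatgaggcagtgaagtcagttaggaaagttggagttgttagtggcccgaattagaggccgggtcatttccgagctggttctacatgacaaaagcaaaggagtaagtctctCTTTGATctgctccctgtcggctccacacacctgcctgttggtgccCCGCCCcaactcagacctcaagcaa
Wnt11 start 1: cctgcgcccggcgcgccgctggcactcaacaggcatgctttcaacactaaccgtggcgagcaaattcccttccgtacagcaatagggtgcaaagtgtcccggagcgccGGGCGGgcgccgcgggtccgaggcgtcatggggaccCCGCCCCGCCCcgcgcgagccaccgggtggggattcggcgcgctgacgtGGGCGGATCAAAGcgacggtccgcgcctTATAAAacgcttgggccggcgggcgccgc
Wnt11 start 2: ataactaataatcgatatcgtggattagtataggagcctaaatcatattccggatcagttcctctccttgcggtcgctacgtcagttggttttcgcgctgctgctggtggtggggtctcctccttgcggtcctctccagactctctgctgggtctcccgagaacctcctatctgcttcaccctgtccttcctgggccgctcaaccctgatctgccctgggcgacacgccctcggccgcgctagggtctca
Start 1 of both genes had the denser window, with 35 CpG pairs and 75.2% G or C for Wnt5b and 37 CpG pairs and 70.8% for Wnt11. The windows of Wnt5b starts 2 and 3 held 4 and 7 CpG pairs, and that of Wnt11 start 2 held 16. A TATA box stood 29 bases before Wnt11 start 1, and none was matched in the other 4 windows. TCF/LEF motifs were matched 51 bases before Wnt11 start 1 and 71 bases before Wnt5b start 3. Such a match is a description of letters and not evidence of binding.

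Wnt5a divided its level between 2 main starts in a stable way. Transcripts from the first start held 53.4% and 52.0% of the gene's TPM, and those from the start 6.64 kb downstream held 44.4% and 47.9%. Nearly all of it came from the coding transcripts Wnt5a-201 (8.07 and 7.10 TPM) and Wnt5a-202 (6.42 and 6.30 TPM). Wnt5a-201 lay above Wnt5a-202 in both libraries, with deposited intervals that barely cleared each other in replicate 1 and overlapped in replicate 2.

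Wnt5b and Wnt11 were divided differently in the 2 libraries. For Wnt5b, start 1 held 62.7% in replicate 1 and 44.2% in replicate 2, start 2 held 5.66% and 55.8%, and start 3 held 31.6% and 0%. The same gene had close totals of 217 and 249 counts, so the change lay in how reads were shared among transcripts. The deposited intervals of its transcripts were wide and overlapped between the libraries, reaching up to 1.34 TPM in replicate 1 and spanning 0.273 to 2.91 TPM in replicate 2 for Wnt5b-202. For Wnt11, start 1 held 56.9% and 31.7% and start 2 held 43.1% and 68.3%, from 76 and 80 counts. All of the start 1 level was given to Wnt11-202, annotated as a target of nonsense-mediated decay (0.87 and 0.53 TPM), as is Wnt11-204 (0.15 and 0.20 TPM). The coding transcript Wnt11-205 had 0.51 and 0.95 TPM and the other coding transcripts were listed at 0, so Wnt11 reached 1 TPM only with these decay targets included. Its transcript intervals overlapped as well, so the data do not order the starts of either gene.

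**Figure D3:**
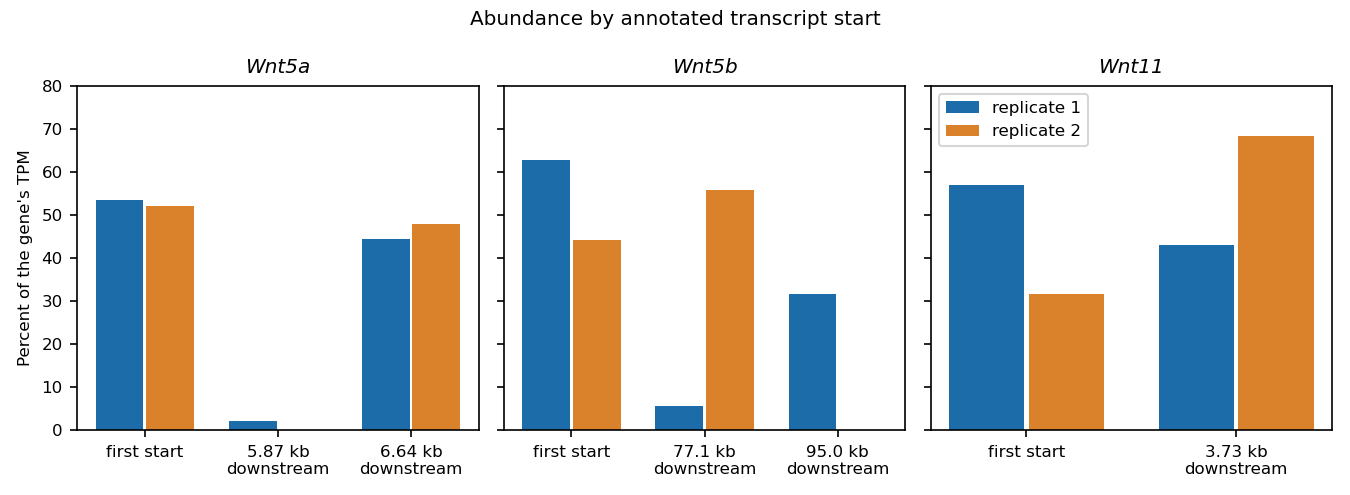
Percent of each gene's TPM assigned to transcripts from each annotated start, with the distance from the first start in kb, in replicate 1 (blue) and replicate 2 (orange); starts at 0 in both libraries are left out. The Wnt5a bars nearly match between libraries, while Wnt5b start 2 holds 5.66% in replicate 1 and 55.8% in replicate 2 and the Wnt11 bars swap order.

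Among the 12 genes of the 43 with several annotated transcripts whose mean reached 1 TPM, 10 had the same major transcript in both libraries, beside 92.0% of 9808 protein-coding genes that passed the same filter. The 2 exceptions were Wnt5b and Wnt11. The major transcripts of Fzd3, Sfrp2 and Wnt9a held 100% in both libraries. By the deposited posterior means they held less, at 94.15% and 94.55% for Fzd3, 98.93% and 99.02% for Sfrp2, and 86.75% and 89.37% for Wnt9a. Ryk was the most divided of the other genes, with Ryk-201 at 49.7% and 43.0%, Ryk-203 at 25.4% and 32.7%, and Ryk-204, annotated as a target of nonsense-mediated decay, at 19.6% and 19.5%. The deposited intervals of Ryk-201 and Ryk-203 overlapped in both libraries. Ror2 had 81.1% and 76.0% of its level from the first start and the rest from a start 0.575 kb downstream.

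Several Wnt genes are neighbours in the mouse genome, and 4 such pairs lay within 100 kb with no protein-coding gene between them. Wnt9a and Wnt3a, which lie 16.2 kb apart on chromosome 11 and are read away from each other, showed the widest contrast. Wnt9a had 356 and 326 counts, against 0 and 1 for Wnt3a, a ligand of early axis formation. The other 3 pairs, Wnt6 with Wnt10a, Wnt9b with Wnt3, and Wnt10b with Wnt1, had no detected member. The windows before the Wnt9a start (chr11:59306680-59306929, plus strand) and the Wnt3a start (chr11:59290752-59291001, minus strand) are shown as the pair with the widest contrast in level, with the same motifs in capitals.
Wnt9a: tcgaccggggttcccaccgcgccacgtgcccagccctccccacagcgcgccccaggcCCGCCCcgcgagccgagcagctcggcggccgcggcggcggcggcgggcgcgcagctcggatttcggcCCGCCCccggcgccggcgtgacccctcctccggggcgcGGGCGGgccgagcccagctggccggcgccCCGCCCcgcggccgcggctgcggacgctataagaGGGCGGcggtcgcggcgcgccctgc
Wnt3a: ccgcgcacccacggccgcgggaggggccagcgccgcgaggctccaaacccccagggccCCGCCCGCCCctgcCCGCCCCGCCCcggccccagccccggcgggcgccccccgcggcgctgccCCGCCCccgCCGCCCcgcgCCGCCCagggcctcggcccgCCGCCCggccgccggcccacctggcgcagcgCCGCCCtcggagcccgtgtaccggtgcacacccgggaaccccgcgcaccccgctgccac
Both windows were among the densest in CpG pairs of the promoter table, with 48 for Wnt9a and 41 for Wnt3a. Wnt9a held 5 GC boxes and Wnt3a held 9. By CpG count the windows stood at percentiles 99.8 and 98.9 of the table.

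Across the family, 29 of the 43 genes had an entry in the promoter table, with 32 windows. GC boxes were matched in 75.0% of the 32 windows, beside 32.7% of the 32851 windows in the table. The median window of these genes had 67.4% G or C and 22 CpG pairs, beside 52.4% and 6 in the table. TATA boxes were matched in 18.8%, beside 12.4%, and TCF/LEF motifs in 12.5%, beside 14.8%. The 4 windows with a TCF/LEF match belonged to Wnt5b, Wnt11, Fzd7 and Dkk1. The Dkk1 matches lie after the annotated start of its transcript (30549665), because the RefSeq start (30549496) is downstream on the minus strand. The RefSeq start of Fzd7 (59482147) also differs from its annotated start (59482424).

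Frizzled receptors were spread more evenly than the ligands. Fzd1 had 8.65 and 9.13 TPM, Fzd2 had 8.07 and 8.40 TPM, and Fzd4, which also binds Norrin in retinal vessels, had 7.09 and 8.42 TPM. These 3 genes held 58.6 ± 1.80% of the Frizzled sum and could not all be ordered, since Fzd4 passed Fzd2 in replicate 2. Fzd5, a receptor of the intestinal epithelium, had 5.21 and 4.89 TPM, below Fzd4 in both values and both intervals. Fzd6 had 4.14 and 4.37 TPM and Fzd3 had 4.10 and 3.62 TPM, the pair best known for planar polarity of hair and for axon guidance. Fzd7, a receptor of adult intestinal stem cells, had 2.90 and 3.21 TPM and was the lowest Frizzled gene detected. Fzd8, Fzd10 and Fzd9 ran from 0.28 to 0.64 TPM, with 18 to 61 counts. Both values and both intervals of Fzd7 lay above those of these 3 genes.

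All 5 co-receptors and alternative receptors were detected. Ryk, a Wnt-binding receptor with an inactive kinase domain, had 11.5 and 12.3 TPM, and Ror2, a receptor of Wnt5a, had 10.7 and 11.6 TPM. Lrp6 had 6.91 TPM in replicate 1 and 10.4 TPM in replicate 2, and Lrp5 had 3.72 and 3.58 TPM. Ror1 was lowest with 3.40 and 3.68 TPM. Ryk and Ror2 lay above Lrp6 in both libraries, but the Ror2 and Lrp6 intervals overlapped in replicate 2, and the order of Lrp5 and Ror1 turned between libraries.

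Inhibitors held the 3 highest levels of the 43 genes. Sfrp2 had 50.3 and 48.0 TPM and Sfrp1 had 45.5 and 41.7 TPM, and together they held 71.9 ± 1.08% of the inhibitor sum. Both genes take part, with Sfrp5, in lengthening the mouse gut. Dkk3, a divergent Dkk protein that is not known as an Lrp5 or Lrp6 antagonist, had 22.8 and 22.3 TPM. Dkk2 had 7.17 and 6.75 TPM. Sfrp2, Sfrp1, Dkk3 and Dkk2 stood in that order in both libraries with deposited intervals apart. Sfrp5 had 7.10 TPM in replicate 1 and 2.95 TPM in replicate 2. It lay below Dkk2 in both libraries, but their intervals overlapped in replicate 1. Dkk1, a strong antagonist of Lrp5 and Lrp6 and itself a target of the pathway, just missed detection with 1.04 and 0.99 TPM. Wif1 had 0.50 and 0.44 TPM and Sfrp4 had 0.25 and 0.30 TPM. Dkk4 had no count in either library, which allows up to 0.0846 and 0.0871 TPM.

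Over all 22 detected genes, 6 of the 21 neighbouring pairs in the order of levels stood apart in both values and both intervals. These were Sfrp2 above Sfrp1, Sfrp1 above Dkk3, Dkk3 above Wnt5a, Ror2 above Fzd1, Dkk2 above Fzd5, and Fzd7 above Wnt11. The middle of the order, from Fzd5 down to Fzd7, held genes whose neighbours were not apart. Sfrp2 stood at percentile 84.8 of all protein-coding genes by mean TPM, Wnt5a at 66.3 and Fzd1 at 59.0.

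Genes on the other strand limit some of these values. Exons of Wnt5a overlap 358 bases of the antisense gene Gm2670, listed at 0.60 and 0.69 TPM, and exons of Sfrp2 overlap 347 bases of Gm26771, listed at 1.39 and 1.91 TPM. Of the other members, Fzd5, Fzd6, Wnt11 and Wnt7b share exon bases with a gene on the other strand at 0 to 0.08 TPM. The labels do not say whether strand was kept.

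Levels of paralogs were compared in 16 pairs by the log2 ratio of TPM, with 0.1 added to each value. A pair is called apart where both libraries have the same sign and the mean is above 3 SD. An exact two-sided sign-flip test of 2 libraries cannot give a p below 0.5, and none is given. By this rule 14 of 16 pairs were apart, a count with no background share from other gene pairs beside it. Wnt5a stood 3.77-fold above Wnt5b (log2 1.91 ± 0.30), Wnt2b 2.86-fold above Wnt2 (1.52 ± 0.18), and Wnt9a 25.0-fold above Wnt9b (4.64 ± 0.06), a ratio that the added 0.1 makes smaller. Among receptors, Ror2 stood 3.09-fold above Ror1 (log2 1.63 ± 0.004), Fzd5 7.93-fold above Fzd8 (2.99 ± 0.20) and Fzd4 14.9-fold above Fzd10 (3.90 ± 0.27). In each of these pairs 1 paralog carried most of the transcripts. In CPM, without length, the log2 ratio was 3.21 for Wnt5a over Wnt5b, 2.27 for Wnt2b over Wnt2 and 4.11 for Fzd5 over Fzd8. With 1 added in place of 0.1 it was 0.68 for Wnt2b over Wnt2, 2.15 for Wnt9a over Wnt9b, 1.96 for Fzd5 over Fzd8 and 2.62 for Fzd4 over Fzd10.

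Fzd7 stood below both of its close relatives, with a log2 ratio of -1.51 ± 0.05 to Fzd1 and -1.40 ± 0.06 to Fzd2. Fzd2 and Fzd1 were nearly level, at a log2 ratio of -0.11 ± 0.01, and their deposited intervals overlapped. Sfrp1 also lay close to Sfrp2, at -0.17 ± 0.04. This order turned when CPM, which has no length correction, was used, where the log2 ratio of Sfrp1 to Sfrp2 was 0.99. Sfrp1 stood 9.32-fold above Sfrp5 (3.22 ± 0.79) and Dkk3 3.21-fold above Dkk2 (1.68 ± 0.04). Wnt3 over Wnt3a and Wnt7b over Wnt7a were apart in both libraries, but the lower gene of each pair had 0 or 1 count, so no fold is given, and the Wnt7b and Wnt7a intervals overlapped. The pairs not apart were Wnt10a with Wnt10b, at 3 and 5 against 4 and 0 counts, and Lrp6 with Lrp5, at a log2 ratio of 1.19 ± 0.45. By intervals alone, Lrp6 and Lrp5 were apart in both libraries.

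The 2 pools were compared to see which of these genes varied between them. The log2 ratio of replicate 2 over replicate 1 was centred on the median of the 13509 protein-coding genes with a mean of 1 TPM or more, and a gene was called at 1.5-fold with deposited intervals apart. Of the 23 members at that level, 2 were called, beside 2.60% of the 13509 genes (1.81% higher in replicate 2 and 0.792% higher in replicate 1). Sfrp5 was lower in replicate 2, at 152 counts against 376 in replicate 1, a log2 ratio of -1.22 or 2.34-fold. Lrp6 was higher in replicate 2, at 2557 counts against 1866, a log2 ratio of 0.60 or 1.51-fold. The next members, outside the call, were Wnt5b at a log2 ratio of 0.29 and Fzd4 at 0.26. The median size of the log2 ratio, in either direction, was 0.11 for the 23 members and 0.12 for the 13509 genes.

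The window before the Sfrp5 start is shown because Sfrp5 differed most between the pools (chr19:42202253-42202502, minus strand, same source and capitals).
Sfrp5: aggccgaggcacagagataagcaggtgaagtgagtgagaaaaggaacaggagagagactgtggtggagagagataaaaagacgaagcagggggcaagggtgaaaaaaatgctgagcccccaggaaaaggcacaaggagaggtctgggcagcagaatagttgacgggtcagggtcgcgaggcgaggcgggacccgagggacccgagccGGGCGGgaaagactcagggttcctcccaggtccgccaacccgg
It held 1 GC box, 43 bases before the start, and none of the other 2 motifs was matched. Sfrp2, the highest member, has 16 CpG pairs in its window and no match to any of the 3 motifs. The CpG count of the Sfrp5 window was 13. These letters come from the reference genome, so they are the same for both pools. A link between the window and the difference between the pools was not tested.

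The Lrp6 call lay close to its threshold and depended on length. By counts alone the difference was 1.39-fold, and the ratio was under 1.5-fold with TMM scaling of counts (log2 0.51) and without centring (0.58). The effective length of Lrp6 fell by 6.24% in replicate 2, where the short transcript Lrp6-203 was given 10.8 counts and 0.61 TPM, against 0 in replicate 1. The Sfrp5 call held under every scaling, filter and threshold run. Its effective length was the same in both libraries.

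All 6 inhibitors tested had a centred ratio below 0, from -1.22 for Sfrp5 to -0.02 for Dkk3, while 5 of 7 Frizzled genes, 4 of 5 co-receptors and 3 of 5 ligands had a ratio above 0. Centring puts 6754 of the 13509 genes above 0 and 6754 below it. Apart from Sfrp5 and Lrp6 the shifts of the members were small. Intervals were apart for 4 of the 23 members, adding Sfrp1 (-0.11) and Fzd4, beside 25.4% of the 13509 genes. The pools also differed in markers of other cells. All 6 enterocyte markers were higher in replicate 2, with a sum of 10538 TPM in replicate 2 and 7044 TPM in replicate 1, and all 6 pancreas markers were too, with 6016 and 4613 TPM. Replicate 1 had more of all 5 erythroid markers, 17707 TPM in replicate 2 against 21642 TPM in replicate 1, and of 5 of 6 liver markers, 419 against 546 TPM. The 5 adrenal and gonad markers summed to 6.85 TPM in replicate 2 and 39.7 TPM in replicate 1, and 1 of them, Cyp11a1, was detected in both. Mesenchyme, smooth muscle and epithelium sums differed by at most 1.05-fold. Of 5 stomach markers 3 were detected, with list sums of 9.42 TPM in replicate 2 and 9.99 TPM in replicate 1. The stomach markers Gif and Muc5ac were at 0 in both libraries. None of the 4 kidney markers was detected, and Umod was at 0 in both. The part of these markers in the Sfrp5 and Lrp6 differences was not tested.

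**Figure D4:**
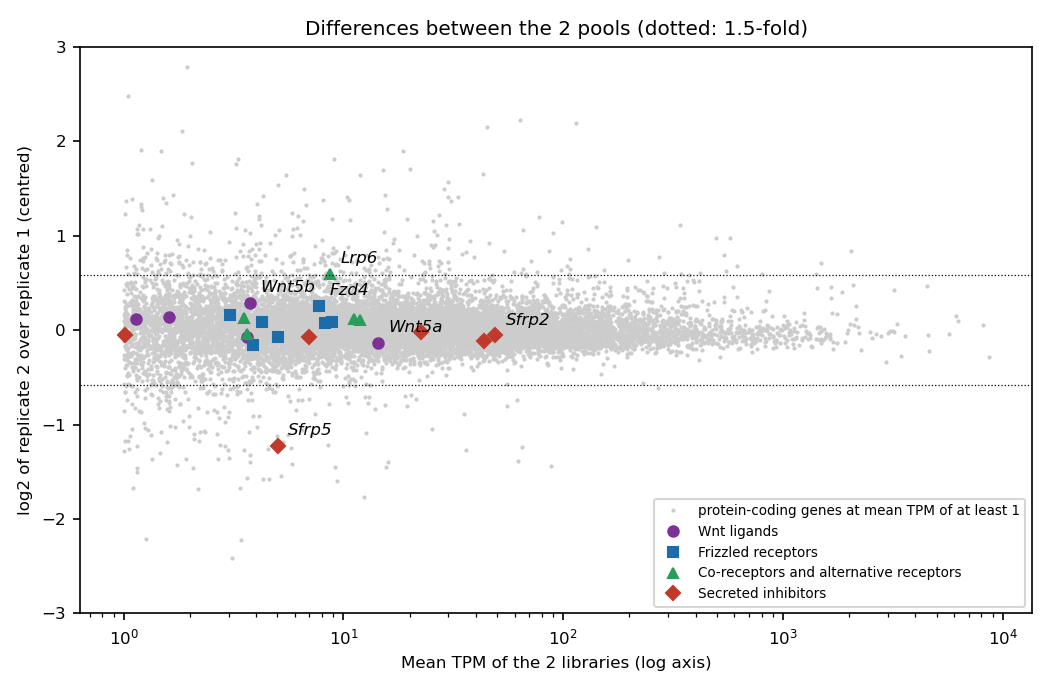
Centred log2 ratio of replicate 2 over replicate 1 against mean TPM (log axis) for the 13509 protein-coding genes (grey) and the 23 members whose mean reached 1 TPM (coloured by family), with dotted lines at 1.5-fold; 12 genes beyond a log2 ratio of 3 lie off the axis. Sfrp5 at -1.22 and Lrp6 at 0.60 lie past the dotted lines, and the other 21 members lie between them.

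The rest of the pathway was described with 6 lists of 61 genes, of which 48 were detected, beside the same 62.0% of all protein-coding genes. All 16 transduction genes were detected, from Pygo1, a nuclear partner of beta-catenin, at 1.31 and 1.45 TPM to beta-catenin itself, Ctnnb1, at 312.6 and 318.2 TPM. Csnk1a1, a kinase of the beta-catenin destruction complex, had 180.4 and 159.2 TPM, and the TCF factor Tcf7l2 had 50.1 and 50.5 TPM. Gsk3a, another kinase of that complex, was the 1 gene called between the pools of the 48 list genes tested, beside 2.60% of all genes, at 4.82 TPM in replicate 2 and 3.13 TPM in replicate 1 (log2 0.62). That call was lost with a pseudocount of 1 (log2 0.51) and at the 2-fold threshold.

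Of the 3 genes for ligand release and inactivation, 2 were detected. Wls, which carries Wnts to the cell surface, had 48.8 and 45.4 TPM, and Porcn, which adds the lipid to Wnts, had 6.43 and 4.96 TPM. Notum, which removes that lipid, had 0.90 and 0.47 TPM. Wls alone stood above the sum of all 19 ligands in each library.

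The 10 other extracellular regulators resembled the ligands in having a minority detected, 4 of 10. Kremen1, which works with Dkk proteins against Lrp6, had 7.76 and 8.93 TPM, Sostdc1 had 5.18 and 4.03 TPM, and Tpbg had 3.78 and 4.08 TPM. Frzb was the fourth, with 2.03 and 1.65 TPM, and is named here because its protein belongs with the Sfrp inhibitors. Cer1, an early embryonic inhibitor, was lowest with 0.06 and 0.04 TPM.

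In the R-spondin axis, which keeps Frizzled receptors at the cell surface, 7 of 9 genes were detected. The receptor Lgr4 had 16.3 and 16.1 TPM, the secreted Rspo3 had 10.3 and 9.91 TPM, and Rnf43, a ligase that removes Frizzled receptors, had 9.56 and 10.6 TPM. Rspo4 was lowest with 0.04 and 0.02 TPM from 3 and 1 counts. Rspo3 thus reached a level close to that of Fzd1.

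Among feedback genes and targets, 9 of 11 were detected. Myc had 83.6 and 74.2 TPM, Ccnd1 had 61.2 and 50.3 TPM, and the feedback inhibitor Nkd1 had 12.3 and 13.2 TPM. Lef1 was lowest with 0.27 and 0.25 TPM. Myc and Ccnd1 also respond to many other signals, so their level is no readout of Wnt alone. Of 12 planar polarity genes, 10 were detected, with the Wnt co-receptor Ptk7 at 46.2 and 45.0 TPM, Prickle1 at 15.4 and 15.5 TPM, Vangl1 at 13.3 and 13.6 TPM, and Celsr1 lowest at 0.39 and 0.47 TPM.

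**Figure D5:**
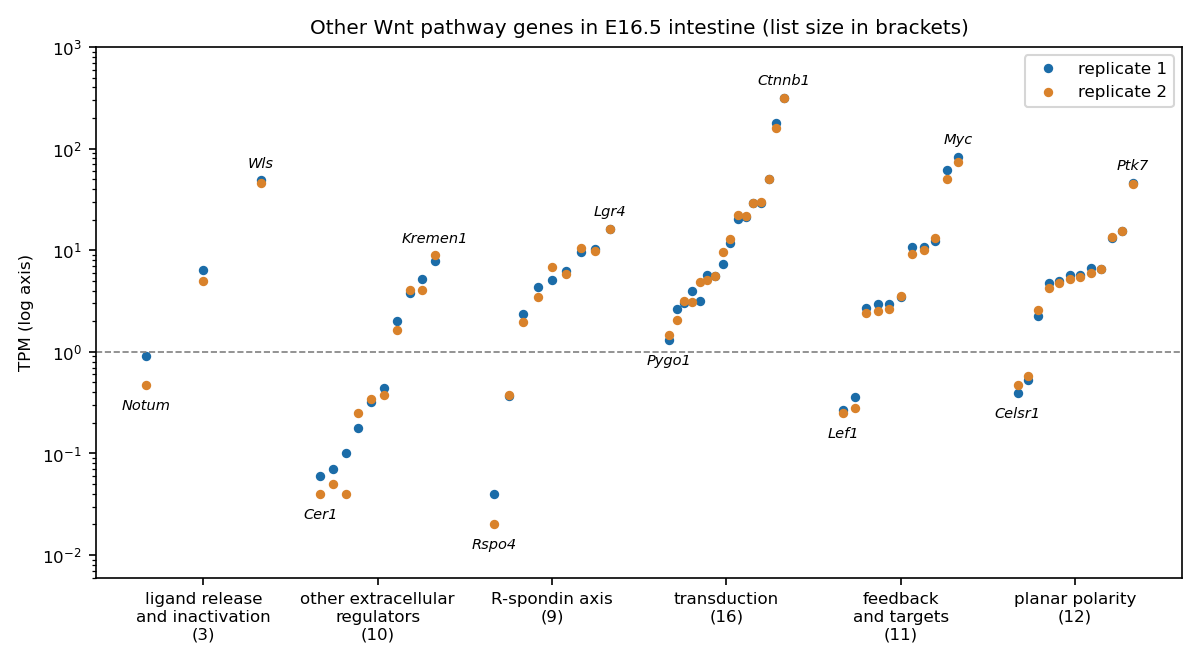
TPM on a log axis for each of the 61 genes of 6 other Wnt pathway lists in replicate 1 (blue) and replicate 2 (orange), sorted by mean within each list, with the highest and lowest gene named and a dashed line at a TPM of 1. All 16 transduction genes lie above the line, while 6 of 10 other extracellular regulators lie below it.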

How the data were processed

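The 2 libraries of embryonic intestine came with gene and transcript tables. Per the file headers and the text beside them, reads were assigned to GENCODE M4 transcripts on mm10; no source used here names the aligner or quantifier. The authors' expected counts estimate the reads of each feature, without normalisation. The deposited TPM values divide counts by effective length (length minus 99) and bring each library, with its spike-ins, to 1 total. In the deposited percent columns a transcript is given as its part of the gene's abundance. The authors' interval bounds, a signal in TPM, accompany posterior means; no level is stated for them.

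Symbols, types and coordinates came from GENCODE M21, which matched 42462 of 43346 gene identifiers; the 884 others held 0.157% and 0.152% of counts. Features naming no gene, spike-ins included, held 1.81% and 1.74% and stayed out. Effective lengths set what 1 read is worth, so a shift in transcript shares moves a gene's TPM.

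Detection, sums, shares, paralog ratios (pseudocount 0.1) and the pool ratio used Python 3.11.15, numpy 2.4.6 and pandas 2.3.3. Alternatives used edgeR 4.0.16 (TMM) and DESeq2 1.42.0 size factors in R 4.3.3, on rounded counts of at least 10 in both libraries. No p-values across genes are given, since there is 1 group. Promoter letters came from the RefSeq table of GRCm38.p6. Proteins, which the rule for named genes also asked for, were not used here.

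Every detected member is named with its values; of each pathway list the 3 highest, the lowest and any gene called between pools are named, and the other genes named were chosen after their values were seen. The members, lists and pairs were chosen with earlier results of these data known.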

Additional observations from a re-analysis of the deposited data

How the results depend on the processing

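No paired analysis was possible because the series holds 1 group. The number of members detected stayed between 20 and 33 under the alternatives, beside 22, and ranged from 22 to 23 when each library was left out. A TPM of at least 2 left 3 of 19 ligands, and at least 10 expected counts took in 10 ligands and 8 of 9 inhibitors, in place of 5 and 5. Posterior mean TPM gave log2 ratios of 2.13 for inhibitors over ligands and 0.53 for Frizzled receptors over ligands. CPM without length gave 1.82 for inhibitors over ligands, a Wnt5a share of 68.3% and a share of 52.8% for Fzd1, Fzd2 and Fzd4. Sums over members whose mean reached 1 TPM gave 2.39 for inhibitors over ligands, 0.74 for Frizzled receptors over ligands, 58.6% for Wnt5a and 60.5% for Fzd1, Fzd2 and Fzd4. These values moved by more than the spread of the libraries and kept their direction; the cause was not tested. The order of Sfrp1 and Sfrp2 turned without length correction (log2 0.99), since their lengths differ.

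By deposited intervals the pairs Wnt7b with Wnt7a and Fzd2 with Fzd1 were no longer apart and Lrp6 with Lrp5 was. In CPM the log2 ratios of Sfrp1 over Sfrp5 and of Lrp6 over Lrp5 were 4.47 and 2.15; 13 to 15 pairs were apart under all alternatives. Calls that compare the 2 libraries, for pairs and major transcripts, have no value with 1 library left out. Members called between the pools fell to 1, Sfrp5, with TMM, with DESeq2 size factors, without centring, with a pseudocount of 1, with no filter on low values and at 2-fold. All protein-coding genes called fell to 214 of 10460 (2.05%) where the mean reached 5 TPM and to 134 of 13509 (0.992%) at 2-fold. The main setting called 351 of 13509 (2.60%). The other settings that left 1 member called had 2.02% to 2.51% of all genes called. The same major transcript was found in 6 of 6 members whose mean reached 5 TPM and in 18 of 20 with no filter. Those 18 include Wnt10b and Wnt7a, whose transcripts were all at 0 in replicate 2, so they had no major transcript there to compare. Counts limit the lowest ligands, of which 5 had under 3 counts in both libraries.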
